A study of Mus musculus with 35 samples.

Results

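The loci described here are those of 6 pluripotency genes, Pou5f1, Nanog, Sox2, Klf4, Sall4 and Lin28a. Each locus was the mm9 gene body with 5 kb on either side, and every region of the deposited signal tables and every listed peak inside these windows was taken. The windows held 6 of 36431 regions in the ATAC table, 5 of 12566 in the H3K4me3 table and 6 of 19224 in the H3K27me3 table. They also held 360 of 5145092 listed ATAC peaks, 157 of 1265794 H3K4me3 peaks and 162 of 2484217 H3K27me3 peaks. The peak counts of both marks include the further library of each mark that is described below and entered no comparison.

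The study treated mouse embryonic fibroblasts (MEFs, cultured from ICR embryos) with combinations of small molecules and measured the chromatin on day 4. The letters stand for CHIR99021 (C, a glycogen synthase kinase inhibitor), Repsox (6, an inhibitor of the TGF-beta receptor), Forskolin (F, an activator of adenylyl cyclase), AM580 (A, a retinoic acid receptor agonist) and EPZ004777 (E, an inhibitor of the histone methyltransferase DOT1L). ATAC-seq, which reads out open chromatin, was done with 2 libraries each of Control, Basal, AE, C6AE, 6FAE, CFAE and C6FAE, the last of which is named CaMP below. ChIP-seq for H3K4me3 and H3K27me3 was done with 1 library per mark for Basal, AE, C6AE, 6FAE, CFAE and CaMP. The labels do not spell out the medium of Basal or Control, so only AE, C6AE, 6FAE, CFAE and CaMP are known to share compounds A and E. A further library of each mark, named as a control in its title and as C6FAE in its treatment label, was left out of every comparison.

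Pou5f1 (Oct4), Nanog and Sox2 encode the transcription factors at the core of the embryonic stem cell network, and Sall4 and Klf4 encode zinc finger factors that act with them. Lin28a encodes an RNA-binding protein that blocks the maturation of let-7 microRNAs. In fibroblasts Pou5f1 and Nanog are silent, whereas Klf4 is also used by many somatic cells. H3K4me3 marks the starts of active genes, H3K27me3 is laid down by Polycomb repressive complex 2, and the starts of developmental genes can carry both marks.

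The promoters of these genes differ in CpG content, and the bases before the gene start are shown because both histone marks are compared at these starts. The 250 bases upstream of the annotated start were taken from RefSeq (GRCm38.p6) for 5 of the 6 genes, with each CpG in capitals. All are written 5′ to 3′ in the direction of the gene, at chr4:55532476-55532725 (minus strand) for Klf4, chr3:34649745-34649994 (plus) for Sox2, chr4:134018817-134019066 (minus) for Lin28a, chr17:35505782-35506031 (plus) for Pou5f1 and chr6:122707239-122707488 (plus) for Nanog.
Klf4: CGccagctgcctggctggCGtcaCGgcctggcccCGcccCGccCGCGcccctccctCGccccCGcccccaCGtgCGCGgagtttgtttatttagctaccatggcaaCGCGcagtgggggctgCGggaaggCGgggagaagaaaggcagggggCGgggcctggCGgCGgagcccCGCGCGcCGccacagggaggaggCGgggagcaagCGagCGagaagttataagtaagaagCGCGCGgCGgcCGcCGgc
Sox2: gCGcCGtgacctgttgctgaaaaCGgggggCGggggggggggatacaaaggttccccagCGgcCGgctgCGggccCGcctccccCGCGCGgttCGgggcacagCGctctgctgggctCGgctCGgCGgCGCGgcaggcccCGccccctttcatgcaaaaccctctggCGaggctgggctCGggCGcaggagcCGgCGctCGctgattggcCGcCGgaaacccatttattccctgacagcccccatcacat
Lin28a: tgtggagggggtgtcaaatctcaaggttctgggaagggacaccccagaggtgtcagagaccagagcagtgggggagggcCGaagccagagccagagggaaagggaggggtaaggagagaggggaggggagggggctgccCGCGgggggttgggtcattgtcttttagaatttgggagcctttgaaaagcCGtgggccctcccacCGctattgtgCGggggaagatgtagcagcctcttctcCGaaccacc
Pou5f1: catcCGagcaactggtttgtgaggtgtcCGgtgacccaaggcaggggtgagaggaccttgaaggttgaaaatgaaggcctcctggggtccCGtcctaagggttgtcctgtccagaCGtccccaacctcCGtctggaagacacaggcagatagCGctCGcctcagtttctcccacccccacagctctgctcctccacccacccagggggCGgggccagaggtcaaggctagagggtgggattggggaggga
Nanog: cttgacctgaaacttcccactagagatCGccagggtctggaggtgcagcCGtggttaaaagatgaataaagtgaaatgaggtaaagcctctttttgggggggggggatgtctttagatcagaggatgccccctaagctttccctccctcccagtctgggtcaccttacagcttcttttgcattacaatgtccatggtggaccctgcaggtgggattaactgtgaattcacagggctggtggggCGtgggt
Klf4 held 32 CpGs in these 250 bases and Sox2 held 27, more than 95.4% and 91.4% of all 32851 promoters in the table respectively. Pou5f1 held 8, Lin28a held 7 and Nanog held 3, against a median of 6 over all promoters. The GC box GGGCGG, read on both strands, occurred 4 times in Klf4, 2 times in Sox2, once in Pou5f1, and at no position in Nanog or Lin28a. It was present in 32.7% of all promoters. The full cyclic AMP response element TGACGTCA was in none of the 5 sequences and in 1.55% of all promoters, and the shorter TGACG it contains was found once, in Klf4, and in 17.8% of all promoters.

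Open chromatin at the gene starts was described first from the peaks listed for each library. The ATAC libraries held 3346418 to 8764791 tags, and a peak was listed at an unadjusted p of 0.05. With so permissive a list, 33.9% of all windows of the same width across the genome overlapped a listed ATAC peak, averaged over the libraries. Against that background, 65 of the 84 combinations of gene and library had a listed peak within 1 kb of the gene start. Klf4 had one in 14 of 14 libraries, Sox2 in 12, Sall4 in 11, Lin28a in 11, Pou5f1 in 10 and Nanog in 7. The lists also hold a −log10 q column, although their headers state that q was not calculated, so it is used here as listed, as a stricter threshold and not as an error rate. At −log10 q of at least 1.3, 0.9% of the windows across the genome overlapped a peak, and 7 combinations remained, all at Klf4.

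**Figure D1:**
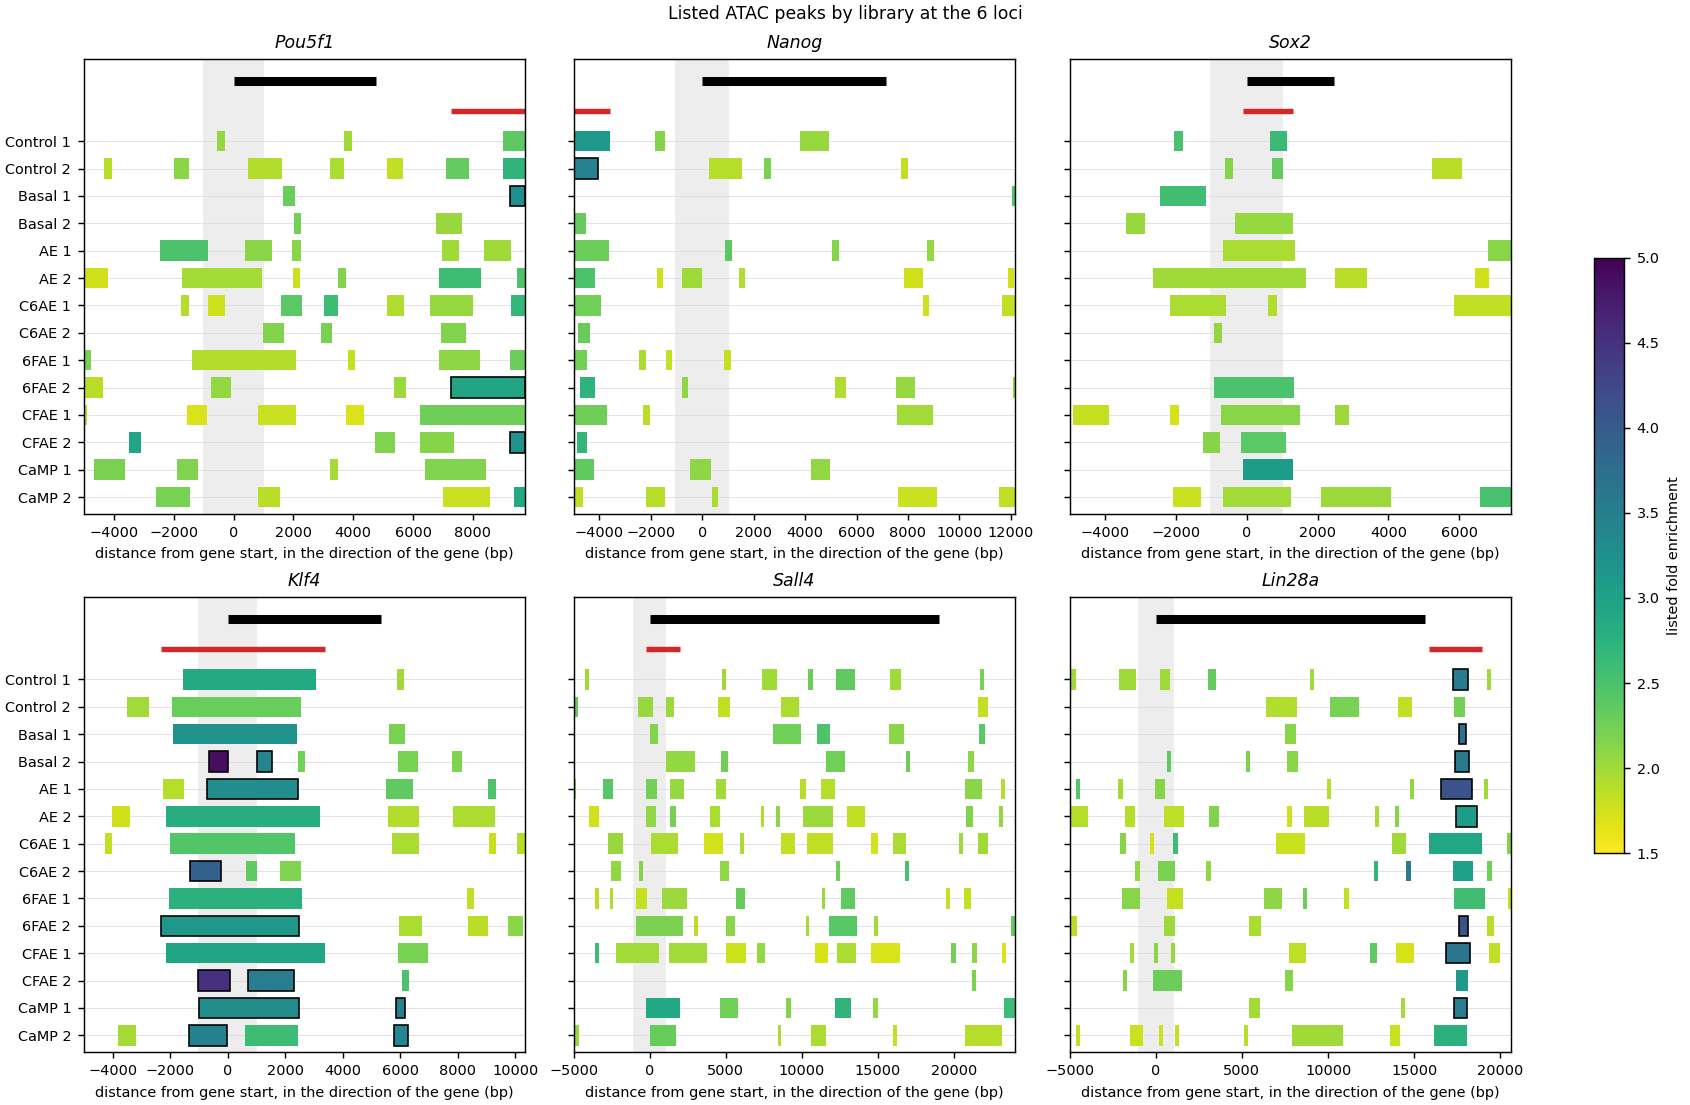
Listed ATAC peaks at the 6 loci, with 1 line per library and the distance from the gene start in bp on the x axis. Colour gives the listed fold enrichment, black outlines mark peaks with −log10 q of at least 1.3, red bars are the regions of the signal table, black bars are the gene bodies and grey bands span 1 kb around the start. Outlined peaks lie at the start of Klf4 in 7 libraries, beyond the 3′ ends of Pou5f1, Lin28a and (in CaMP) Klf4, and upstream of Nanog in Control replicate 2.

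Klf4 had the most open start of the 6 genes, with a listed peak in Control as well as in the treated cells. The 7 libraries with −log10 q of at least 1.3 were both CaMP libraries, 1 library each of Basal, AE, C6AE, 6FAE and CFAE, and neither Control library. Across the genome such a peak overlapped 2.17% and 0.80% of the windows in the CaMP libraries, and 0.38% and 0.26% in the Control libraries. In the other libraries the share ran from 0.0935% (C6AE replicate 2) to 1.85% (6FAE replicate 2). The part of these differences between lists in the Klf4 count was not tested. The best listed fold enrichment (as the authors' peak caller gives it, with 1 tag added to both the pileup and the library background) was 2.88 and 2.30 in Control, 3.22 and 4.89 in Basal, and 3.30 and 2.82 in AE. It was 2.45 and 3.94 in C6AE, 2.77 and 3.15 in 6FAE, 2.93 and 4.51 in CFAE, and 3.31 and 3.47 in CaMP. Both CaMP libraries lay above both Control libraries and inside the range of the other treatments, and the replicates of Basal, of C6AE and of CFAE differed from each other by more than the CaMP and Control means did. Without the added tag the order changed, with pileup over background of 6.64 and 4.37 in Control and 5.56 and 7.07 in CaMP, so that the 2 groups overlapped. The merged signal of the region over the start (chr4:55541975-55547668) was 23.0 RPKM in Control and 22.6 RPKM in CaMP, with the other treatments between 17.6 RPKM (C6AE) and 30.4 RPKM (AE). Klf4 was above the median of all regions in all 7 columns, at the 91.1 percentile in Control and the 72.2 percentile in CaMP.

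A second Klf4 feature, chosen after its values were seen, lay 5.5 to 6.7 kb downstream of the start, just past the 3′ end. A peak was listed there in 11 of 14 libraries. The fold enrichment was 3.48 in CaMP replicate 1 and 3.39 in CaMP replicate 2, and these were the only 2 of the 14 libraries with −log10 q of at least 1.3 (1.80 and 1.44). Control had 2.00 in replicate 1 and no listed peak in replicate 2, and the highest value outside CaMP was 2.49, in CFAE replicate 2. No region of the ATAC table covered it, and no test was made because the feature was picked for this pattern. The lists also differ in how many peaks reach −log10 q of at least 1.3. Such a peak overlapped 2.17% and 0.80% of the windows across the genome in CaMP. The shares were 1.26% and 1.70% in CFAE, and 0.38% and 0.26% in Control.

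Sox2 was weakly open at its start. In the region chr3:34548822-34550234, which spans −105 to 1307 bases from the start, the best listed fold enrichment was 2.63 and 2.33 in Control, 3.08 and 1.99 in CaMP, 2.13 and 2.40 in CFAE, and 1.94 and 2.00 in AE. Basal replicate 1, C6AE replicate 2 and 6FAE replicate 1 had no listed peak there, and their partner libraries had 2.05, 1.90 and 2.50. Both Control libraries therefore lay above CaMP replicate 2 and below CaMP replicate 1. The lists of Basal replicate 1 and C6AE replicate 2 hold no fold enrichment below 2.11 and 2.08. The lack of a peak in these 2 libraries therefore does not show less signal than in their partners. The merged RPKM was 13.2 in Control, 9.23 in Basal, 11.8 in AE, 6.06 in C6AE, 16.6 in 6FAE, 21.6 in CFAE and 20.2 in CaMP. On the log2(RPKM + 1) scale CaMP exceeded Control by 0.58 and C6AE by 1.59.

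Sall4 had the lowest signal of the 3 start regions in Control and the largest difference between CaMP and Control. The region chr2:168590798-168593047 (−247 to 2002 bases from the start) had 5.71 RPKM in Control, 9.48 in Basal, 8.73 in AE, 6.64 in C6AE, 10.7 in 6FAE, 9.82 in CFAE and 20.5 in CaMP. CaMP was thus higher than every other column, as it was in 27.6% of all regions. On the log2(RPKM + 1) scale it exceeded Control by 1.68, the next column, 6FAE, by 0.88, and CFAE by 0.99. By library the fold enrichment was 2.90 and 2.32 in CaMP, while Control replicate 1 had no listed peak and Control replicate 2 had 2.04. On this scale the 2 CaMP libraries were the 2 highest of the 14, ahead of AE with 2.25 and 2.24, although none of these peaks reached −log10 q of 1.3. As pileup over background within 1 kb of the start, CaMP had 4.76 and 4.23, and C6AE replicate 2 (4.74) and AE replicate 1 (4.39) lay between them.

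Of the 3 regions over a gene start, only that of Sall4 (1 of 3) gained 2-fold or more from Control to CaMP, where 25.1% of all regions did. None (0 of 3) lost 2-fold or more, against 4.42% of all regions. The merged columns carry 1 value per treatment and were not tested. The log2 fold enrichment of the 14 libraries was tested in their place with limma, with all 7 treatments in the fit. A library with no listed peak was set to a fold enrichment of 1. Control replicate 1 at Sall4 was among these, and its list holds no fold enrichment below 2.00. CaMP exceeded Control by 0.86 at Sall4 (SE 0.43, adjusted p = 0.448), by 0.39 at Klf4 (SE 0.34, adjusted p = 0.645) and by −0.0015 at Sox2 (SE 0.47, adjusted p = 1). Among the 6 regions 0 passed an adjusted p under 0.05, as did 0 of all regions. At an unadjusted p under 0.05, 1 of 6 passed, the Nanog upstream region. It differed by −0.66 (SE 0.27, limma adjusted p = 0.352), and its edges were set by a Control library. Over all regions 10.7% were higher and 1.29% lower at that threshold. Leaving out 1 of the 4 libraries at a time moved the Sall4 difference from 0.35 to 1.37 and the Sox2 difference from −0.32 to 0.31. The upper Sall4 value leaves only Control replicate 1 in its group, at the fold enrichment of 1 set for no listed peak. That end of the range is therefore not a measured level. In the merged columns the median difference over all regions was 0.50, and after centring the columns on their medians the differences were 1.11 at Sall4, 0.01 at Sox2 and −0.59 at Klf4.

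**Figure D2:**
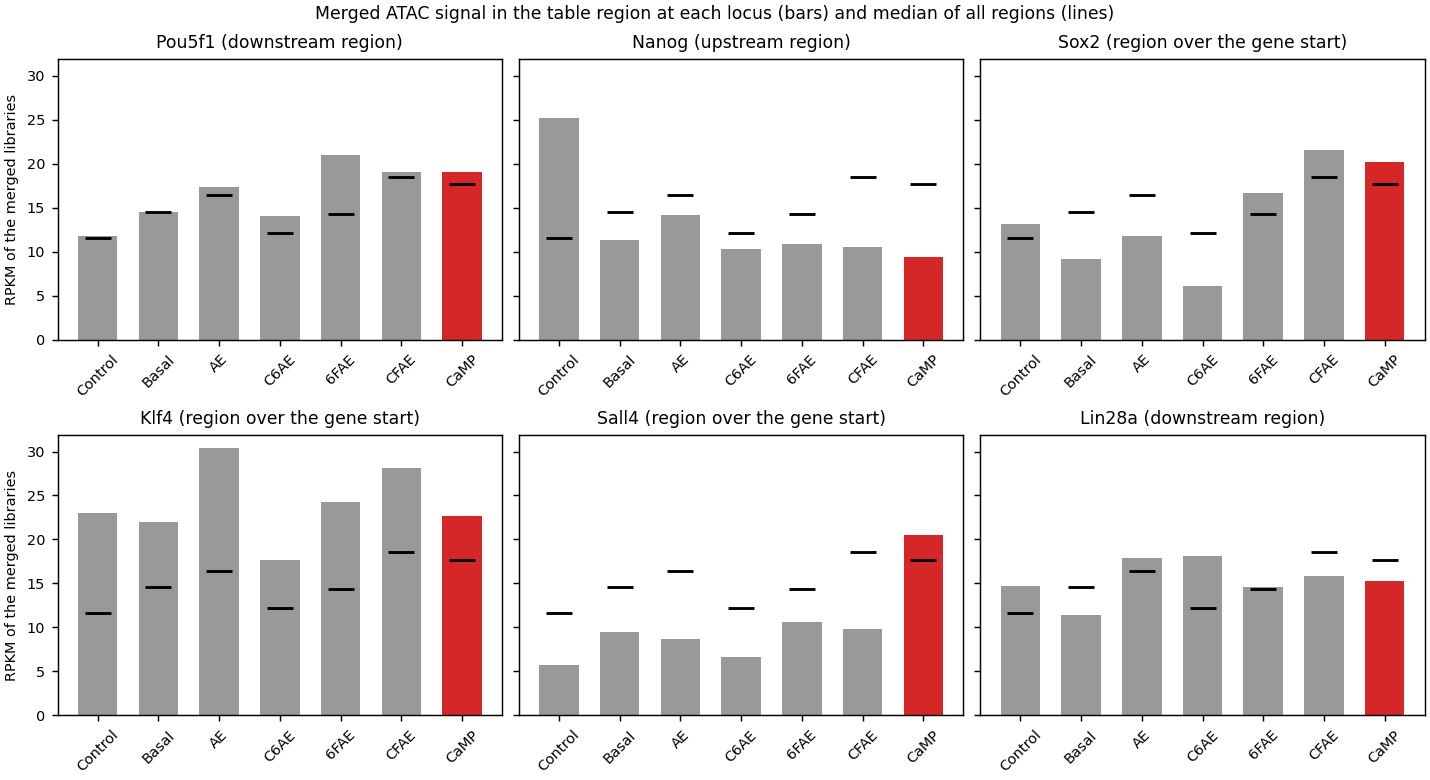
Merged ATAC signal (RPKM) in the single table region at each locus for the 7 treatments, as bars from 0, with CaMP in red and the median of all 36431 regions in each column as a black line. Sall4 in CaMP (20.5) and Nanog in Control (25.2) stand above the other 6 bars of their panels.

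The deposited regions were not drawn independently of the libraries, and this touches the values above. Every region began and ended at the edge of a listed peak, and 54.3% of the ATAC regions equalled a single listed peak of 1 library. The regions at Sox2 and Sall4 equalled peaks of CaMP replicate 1, and the region upstream of Nanog equalled a peak of Control replicate 1. Regions that equalled a peak of CaMP replicate 1 had a median difference between CaMP and Control of 1.13, with a gain of 2-fold or more in 57.2% of these 4045 regions. Of the 879 regions that equalled a peak of Control replicate 1, 0% were 2-fold higher, 56.9% were 2-fold lower, and the median difference was −1.14. The replicates that did not set the edges give the same order at Sall4 (2.32 in CaMP against 2.04 and no peak in Control) and the opposite order at Sox2 (1.99 in CaMP against 2.63 and 2.33). CaMP replicate 2 lay above both Control libraries in 51% of the regions set by CaMP replicate 1 and in 43.8% of all regions.

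**Figure D3:**
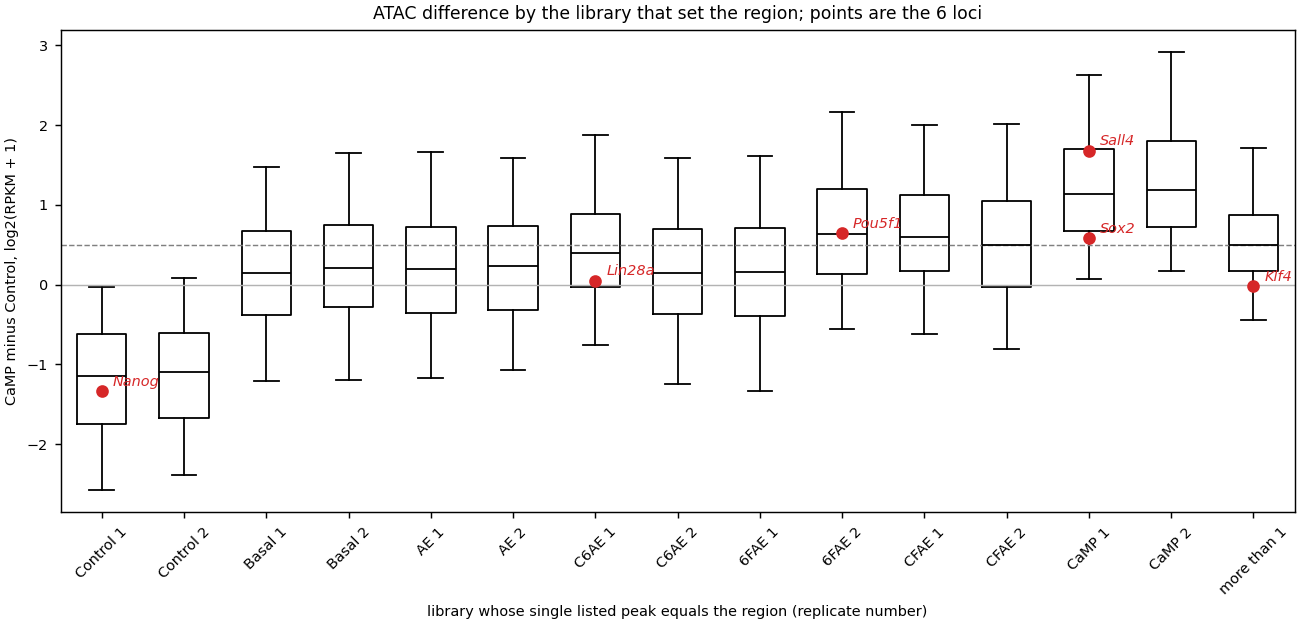
Difference between CaMP and Control in log2(RPKM + 1) for ATAC regions grouped by the library whose listed peak equals the region. Boxes span the quartiles with the median as a line, whiskers reach the 5th and 95th percentiles, the dashed line is the median of all regions and red points are the regions at the 6 loci. Nanog sits at −1.33 in the group set by Control replicate 1, and Sall4 at 1.68 in the group set by CaMP replicate 1.

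Nanog had no table region at its start, and its only ATAC region (chr6:122651382-122653924) lay upstream, −6118 to −3576 bases from the start. It was the only one of the 6 regions that was highest in Control, at 25.2 RPKM, against 11.4 in Basal, 14.2 in AE, 10.4 in C6AE, 10.9 in 6FAE, 10.5 in CFAE and 9.40 in CaMP. Control was the highest column in 5.87% of all regions. The fold enrichment was 3.12 and 3.45 in the Control libraries and 2.36 and 1.83 in the CaMP libraries, and the remaining 10 libraries lay between 2.25 and 2.74. Control replicate 2, which did not set the edges, had the highest value of the 14 libraries and the only peak there with −log10 q of at least 1.3 (1.91). Among the 879 regions set by Control replicate 1, Control replicate 2 was above all 12 libraries of the other treatments in 6.71%.

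H3K4me3 peaks also overlapped the span of this Nanog region, which was examined for the mark after its values were seen. In each library the overlapping peak of highest fold enrichment is given. Its fold enrichment was 6.28 in Basal (11 tags at the summit), 6.28 in AE (9 tags), 4.55 in C6AE (4 tags), 3.26 in 6FAE (4 tags), 2.45 in CFAE (3 tags) and 2.09 in CaMP (2 tags). The CaMP peak, at −3657 to −3408 bases from the start, lay outside those of Basal (−5508 to −4047) and AE (−5105 to −4273). It met the region only at its edge. The 3 libraries without Forskolin were above the 3 with it, on counts that are small in every library and on peaks at differing positions. For comparison, 65.4% of all regions of the H3K4me3 table had lower RPKM in all 3 columns with Forskolin than in the 3 without. That share is on RPKM, whereas the Nanog values are listed fold enrichments at a place outside that table, so the measures differ. A peak with −log10 q of at least 1.3 was listed in 4 of the 6 labelled libraries, CFAE and CaMP being the exceptions.

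The remaining 2 ATAC regions lay beyond 3′ ends and beside neighbouring genes. The Pou5f1 region (chr17:35650243-35655806, 7266 to 12829 bases from the start) adjoined Tcf19 in the RefSeq gene order, and had 11.8 RPKM in Control and 19.1 in CaMP. The Lin28a region (chr4:133555697-133558747, 15853 to 18903 bases from the start) adjoined Dhdds, and had 14.7 RPKM in Control and 15.2 in CaMP. The starts of Pou5f1 and Lin28a themselves had no region in the table. A peak was listed in all 14 libraries in 4 of the 6 regions (Pou5f1, Nanog, Klf4 and Lin28a), as in 42.2% of all regions. Pou5f1 and Nanog also have processed pseudogenes elsewhere in the genome, and how reads with several matches were handled is not given in the sources used here.

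The compounds were compared across the 10 libraries of AE, C6AE, 6FAE, CFAE and CaMP, which all contain A and E. The value used was the log2 of the best listed fold enrichment in each region (1 where no peak was listed). The lowest fold enrichment in a list ran from 1.70 (CFAE replicate 1) to 2.13 (CFAE replicate 2). A value of 1 therefore stands for no listed peak and not for a measured level. The 6 libraries with Forskolin were set against the 4 without, with a two-sided exact permutation test over all 210 splits and Benjamini-Hochberg adjustment over all 36431 regions. The test exchanged single libraries, although these are pairs from CaMP, 6FAE and CFAE on one side and C6AE and AE on the other. Its units are therefore libraries and not treatments. AE, which lacks CHIR99021 and compound 6 too, was in the set without for each compound. The sets thus also differ in the other compounds. At Sox2 the fold enrichment with Forskolin had a lowest, median and highest value of 1, 2.26 and 3.08, and without it of 1, 1.92 and 2.00. The groups overlapped, with a mean difference of 0.33 on the log2 scale (exact p = 0.295, adjusted p = 0.724). Sall4 ranged from 1 to 2.90 (median 2.11) with Forskolin and from 1 to 2.25 (median 2.09) without, a difference of 0.16 (exact p = 0.61, adjusted p = 0.88). Klf4 ranged from 2.77 to 4.51 (median 3.23) with Forskolin and from 2.45 to 3.94 (median 3.06) without, a difference of 0.10 (exact p = 0.59, adjusted p = 0.868).

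Across the 6 regions, 0 passed the Forskolin test at an adjusted p under 0.05 and 0 at an unadjusted p under 0.05, by the exact test and by limma alike, and the 2 groups overlapped at each gene. Over all regions 7.69% were higher and 0.439% lower with Forskolin at an unadjusted p under 0.05. After adjustment the exact test called 0 regions and limma called 18. The smallest p that 210 splits allow is 0.0095, so an adjusted p under 0.05 would need 19% of all regions at that value, and the exact test could not have made a call at fewer. For CHIR99021, with 6 libraries against 4, the differences at the 6 regions lay between −0.34 (Sall4) and 0.17 (Klf4), with 0 at an unadjusted p under 0.05, against 1.77% higher and 1.02% lower over all regions. For compound 6 they lay between −0.27 (Sox2) and 0.15 (Sall4), with 0 at an unadjusted p under 0.05, against 0.554% higher and 3.51% lower. The sizes depended on the scale. With the pileup scaled to library tags the CHIR99021 difference at Sall4 was −0.85 and the compound 6 difference at Sox2 −0.81. Libraries with no listed peak entered that scale at the added pseudocount of 0.1, and both values include such libraries. The standard error of the Forskolin difference, from limma, was 0.31 at Sox2, 0.31 at Sall4 and between 0.16 and 0.19 at the other 4 regions.

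In the merged columns Sox2, Sall4 and the region beyond Pou5f1 were higher in all 3 treatments with Forskolin than in Basal, AE and C6AE, 3 of the 6 regions, as were 15.5% of all regions. All 3 equalled a peak of a library with Forskolin, CaMP replicate 1 for Sox2 and Sall4 and 6FAE replicate 2 for Pou5f1. Among the 11740 regions that equalled a peak of such a library the share was 24.9%, so the count is a description only. The order of the 7 columns was alike at Sall4 and the Pou5f1 region (Spearman's rho = 0.93 over 7 columns), and less so at Sox2 and Sall4 (0.64), Sox2 and Klf4 (0.54) and Klf4 and Sall4 (0.14). These values share the same 7 columns and their depth, and are given as a description.

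H3K4me3 divided the genes into those with and without the mark at the start. Averaged over the 6 labelled libraries, 16.1% of the windows across the genome overlapped a listed H3K4me3 peak and 4.3% one at −log10 q of at least 1.3. Klf4, Sox2 and Sall4 each had a listed peak within 1 kb of the start in 6 of 6 libraries, all at −log10 q of at least 1.3. Lin28a had one in 4 of 6 libraries, 2 of them at that threshold. Pou5f1 and Nanog had 1 listed peak each, of 2 tags and 1 tag, neither at the threshold.

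**Figure D4:**
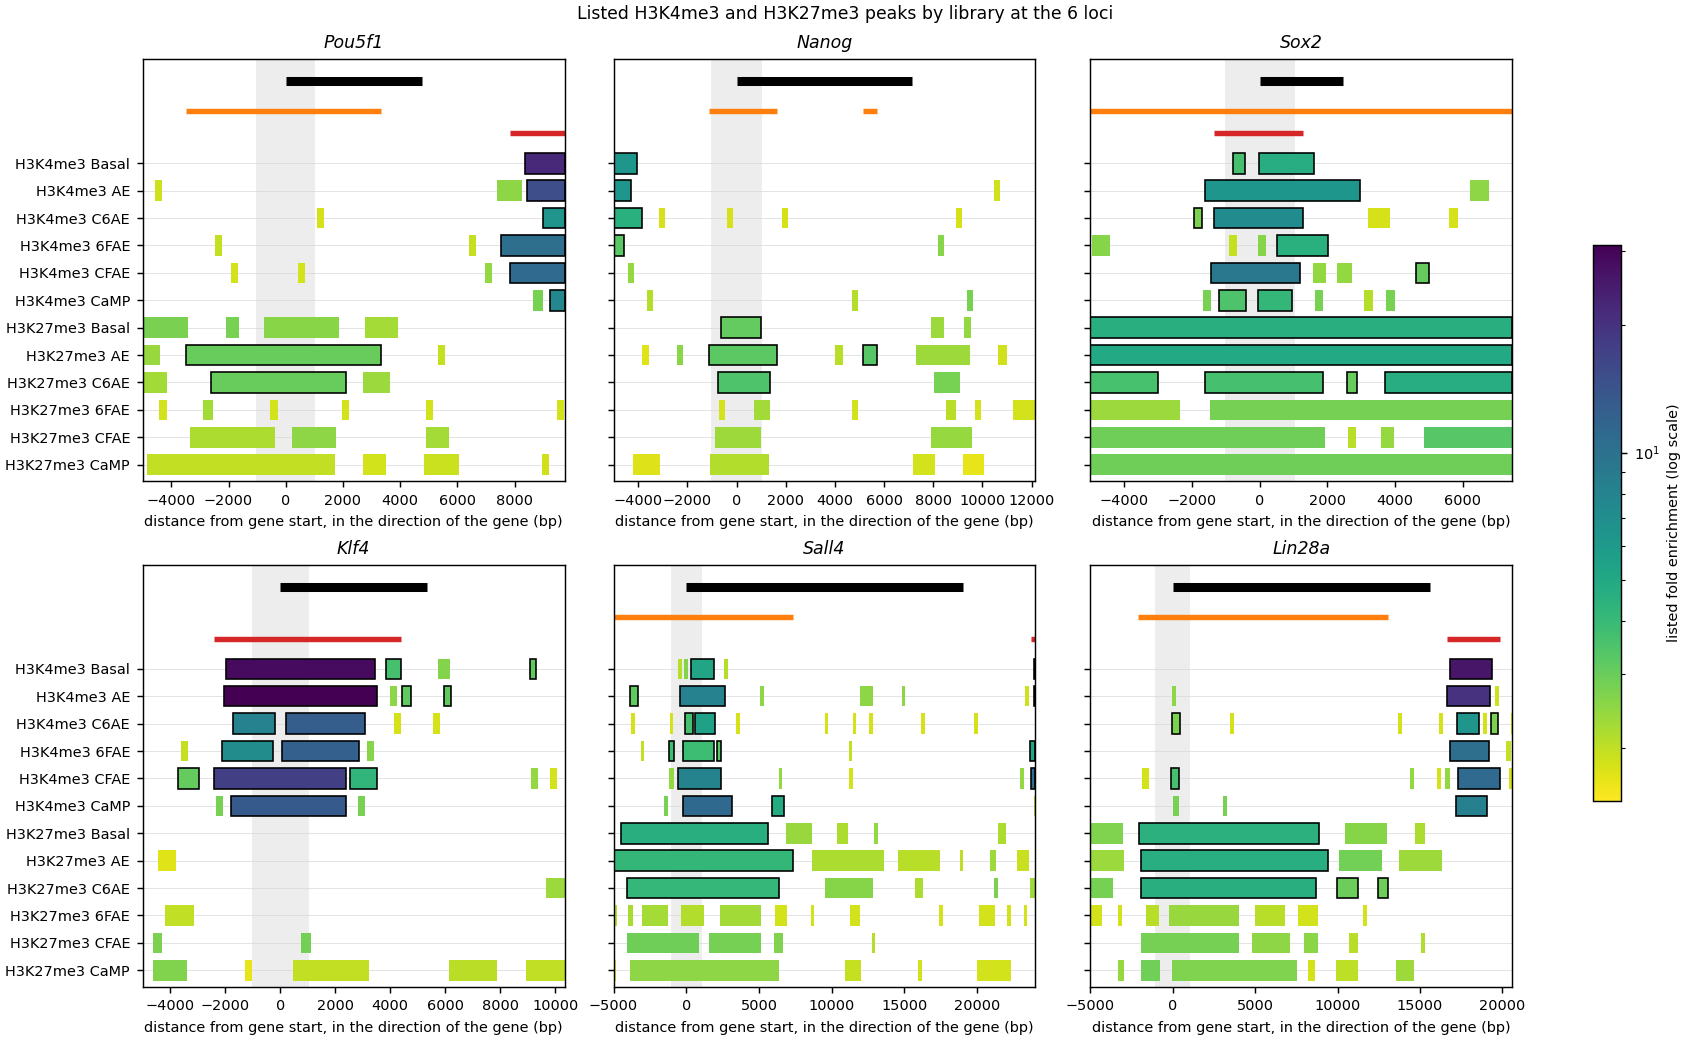
Listed H3K4me3 and H3K27me3 peaks at the 6 loci for the 6 labelled libraries of each mark, against the distance from the gene start in bp. Colour gives the listed fold enrichment on a log scale, black outlines mark −log10 q of at least 1.3, red bars are H3K4me3 and orange bars H3K27me3 regions of the tables, black bars are gene bodies and grey bands span 1 kb around the start. Within the grey band, Klf4 has H3K4me3 in 6 libraries and H3K27me3 in 2, Sox2 and Sall4 have both marks in all 6, and Pou5f1 and Nanog have H3K27me3 in all 6 and H3K4me3 in 1. Further H3K4me3 peaks lie upstream of Nanog and beyond the 3′ end of Pou5f1.

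Klf4 had the strongest H3K4me3 at a start, with lower RPKM in the 3 libraries with Forskolin. The region chr4:55540931-55547760 had 27.9 RPKM in Basal, 31.8 in AE, 34.8 in C6AE, 13.4 in 6FAE, 19.3 in CFAE and 11.1 in CaMP. The column medians were 17.8, 18.8 and 24.8 RPKM in Basal, AE and C6AE, and 11.1, 15.7 and 11.4 RPKM in 6FAE, CFAE and CaMP, and 65.4% of all H3K4me3 regions were lower in the 3 columns with Forskolin than in the 3 without, as were 3 of the 5 regions here. Relative to its own column, Klf4 stood at the 97.4 percentile in Basal, 98.6 in AE and 87.0 in C6AE, and at 73.3 in 6FAE, 80.2 in CFAE and 46.4 in CaMP. A lower rank in all 3 columns with Forskolin was found for 6.76% of all regions, and for 1 of the 5 regions at these loci. A higher rank in all 3 was found for 1 of 5, the region beyond Pou5f1, and for 7.62% of all regions. CaMP was at least 2-fold lower than Basal at Klf4 (log2 difference −1.25), as in 13.3% of all regions, and 5.72% of the regions had a more negative difference. The other 4 regions did not reach 2-fold against Basal. Against AE 1 of the 5 regions (Klf4) was 2-fold lower, as in 17.4% of all regions, and against C6AE 3 of 5 (Klf4, Sox2 and Sall4) were, as in 53.3%. Only the Klf4 and Sox2 regions lay over a start. Those of Pou5f1, Lin28a and Sall4 lay beyond the 3′ end, the last at 23672 to 27102 bases from the start. Centred on the column medians, the Klf4 difference from Basal was −0.66.

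The listed fold enrichment did not follow that order, with 28.3 in Basal, 30.8 in AE, 12.8 in C6AE, 12.4 in 6FAE, 17.7 in CFAE and 13.2 in CaMP, so that C6AE lay below CFAE and CaMP. Counted at the summit, Klf4 had 53 tags in Basal, 48 in AE, 13 in C6AE, 18 in 6FAE, 28 in CFAE and 18 in CaMP. Over the background of each library these were 58.2-fold (95% exact Poisson interval 43.6 to 76.1), 81.1-fold (59.8 to 108), 133-fold (70.8 to 227), 33.6-fold (19.9 to 53.1), 44.2-fold (29.3 to 63.8) and 41.4-fold (24.6 to 65.5). The intervals of all 3 libraries with Forskolin lay below that of C6AE, and that of 6FAE also lay below that of AE, whereas the Basal interval overlapped all 3. The intervals cover counting error only, and each treatment had 1 library, so no test between treatments was made.

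Sall4 carried a smaller H3K4me3 peak that was not part of the signal table, whose only region near Sall4 lay beyond the 3′ end (23672 to 27102 bases from the start). The listed fold enrichment at the start was 5.23 in Basal, 8.17 in AE, 5.47 in C6AE, 3.91 in 6FAE, 7.96 in CFAE and 11.2 in CaMP. CaMP had 15 tags at the summit, Basal 9, AE 12, C6AE 5, 6FAE 5 and CFAE 12. Over background CaMP was at 34.5-fold (19.3 to 56.9), above the interval of Basal (9.88-fold, 4.52 to 18.8) and overlapping those of AE (20.3-fold, 10.5 to 35.4), CFAE (18.9-fold, 9.78 to 33.1) and 6FAE (9.34-fold, 3.03 to 21.8). On this scale C6AE was highest at 51.1-fold (16.6 to 119), from 5 tags in a library of 745089 tags. The listed fold enrichment adds 1 tag to both pileup and background, which compresses the values of a shallow library.

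Sox2 had a listed fold enrichment of 4.71 in Basal, 6.28 in AE, 7.29 in C6AE, 4.56 in 6FAE, 9.18 in CFAE and 4.18 in CaMP, from 5 to 14 tags at the summit. In the table, the region chr3:34547587-34550217 had 33.4 RPKM in C6AE and between 3.55 (6FAE) and 10.6 (CFAE) RPKM in the other treatments. That region equalled a peak of the C6AE library, the shallowest of the mark. The C6AE interval over background (71.6-fold, 28.8 to 148) overlapped those of CFAE (22.1-fold, 12.1 to 37.0) and, at its edge, AE (15.2-fold, 6.96 to 28.9), and lay above those of Basal (8.78-fold, 3.79 to 17.3), 6FAE (11.2-fold, 4.11 to 24.4) and CaMP (11.5-fold, 3.74 to 26.9). Lin28a had 2 to 5 tags in the 4 libraries with a listed peak, with fold enrichments of 2.51 in AE, 2.73 in C6AE, 3.67 in CFAE and 2.79 in CaMP. At this depth no difference between treatments was detectable at Lin28a.

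H3K27me3 peaks were listed over the starts of the other genes in more libraries than at Klf4. The 5 genes other than Klf4 had a listed H3K27me3 peak within 1 kb of the start in all 30 combinations of gene and library, while Klf4 had one in 2 of 6 libraries (CFAE and CaMP), neither at −log10 q of at least 1.3. At that threshold 14 of the 36 combinations of gene and library remained, none of them in a library with Forskolin. In CaMP the best fold enrichment was 1.98 at Klf4 and 1.97 at Pou5f1. In CFAE it was 2.84 at Klf4, from a peak that covered 262 bp of the window. The other 5 genes lay between 2.33 (Nanog) and 2.93 (Sox2) in CFAE. Across the genome 28.9% of the windows overlapped a listed H3K27me3 peak, and 1.28% one at that threshold. Klf4 had no region in the H3K27me3 table, and each of the other genes had a region over its start.

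The regions of the table join peaks of several libraries in part, and that of Sox2 was the longest. It (chr3:34526981-34576783) spanned 49803 bp, that of Sall4 17899 bp (chr2:168585496-168603394) and that of Lin28a 15184 bp (chr4:133561537-133576720). Pou5f1 had 6827 bp (chr17:35639476-35646302) and Nanog 2789 bp (chr6:122656372-122659160), with a further 572 bp region within the Nanog gene body. Single listed peaks over the start were shorter at Lin28a, with 10916 bp in Basal, 11361 bp in AE and 10660 bp in C6AE, and at Sox2 they reached from 3464 bp in C6AE to 46723 bp in CaMP. Within its column, the Sox2 region stood between the 97.5 and 99.7 percentile in all 6 libraries, and the Pou5f1 region between the 33.0 and 80.9 percentile.

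The H3K27me3 signal at Sox2 was 15.9 RPKM in Basal, 12.8 in AE, 8.48 in C6AE, 17.4 in 6FAE, 7.08 in CFAE and 6.11 in CaMP. At Sall4 it was 11.4, 10.1, 7.39, 8.34, 5.02 and 3.76 RPKM, and at Lin28a 13.4, 11.2, 9.21, 8.42, 5.12 and 3.80 RPKM, in the same order of treatments. Nanog had 8.14, 8.22, 6.58, 5.89, 4.76 and 3.38 RPKM, and Pou5f1 had 5.04, 6.15, 5.48, 2.07, 3.80 and 2.47 RPKM. CaMP was the lowest column at 4 of the 5 start regions, Pou5f1 in 6FAE being the exception, and in 30.1% of all regions. The 6FAE library held 633980 tags, the fewest of the mark, against 5919506 in CaMP.

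CaMP was at least 2-fold lower than Basal in 4 of the 6 regions at these loci (Nanog start, Sox2, Sall4 and Lin28a) and at least 2-fold higher in 1 (the Nanog body region, at 0 RPKM in Basal). Over all regions 32.5% were at least 2-fold lower and 5.36% at least 2-fold higher. Against AE it was 2-fold lower in 5 of 6 regions, against 22.7% of all regions, and against C6AE in 1 of 6 (Lin28a), against 25.6%. The largest difference at a start was that of Lin28a, −1.59 on the log2(RPKM + 1) scale against Basal, and 8.57% of all regions had a more negative one. The column as a whole was lower in CaMP, with a median difference of −0.68 against Basal and −0.57 against AE. After centring on the column medians, 0 of the 6 regions were 2-fold lower than in Basal and 1 was 2-fold lower than in AE. The start regions of Pou5f1, Nanog and Sall4 and the Nanog body region equalled peaks of the AE library, and 63.5% of the 1320 regions set by that library were 2-fold lower in CaMP than in AE.

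Ranks within each column do not depend on a common scale, but they do depend on which regions were drawn. Of the 19224 H3K27me3 regions, 75.8% equalled a single listed peak of 1 library, and 2571 regions equalled a peak of 6FAE. Ranks moved down at 2 genes. Sall4 stood at the 98.3 percentile in Basal, 98.1 in AE and 93.3 in C6AE, and at 83.4 in 6FAE, 89.8 in CFAE and 84.8 in CaMP. Lin28a stood at 99.2, 98.8 and 98.6, and at 83.6, 90.4 and 85.5. These 2 of the 6 regions ranked lower in all 3 libraries with Forskolin than in all 3 without, as did 10.7% of all H3K27me3 regions. RPKM itself was lower in all 3 libraries with Forskolin at 3 of the 6 regions (Pou5f1, Nanog start and Lin28a), as in 37% of all regions.

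**Figure D5:**
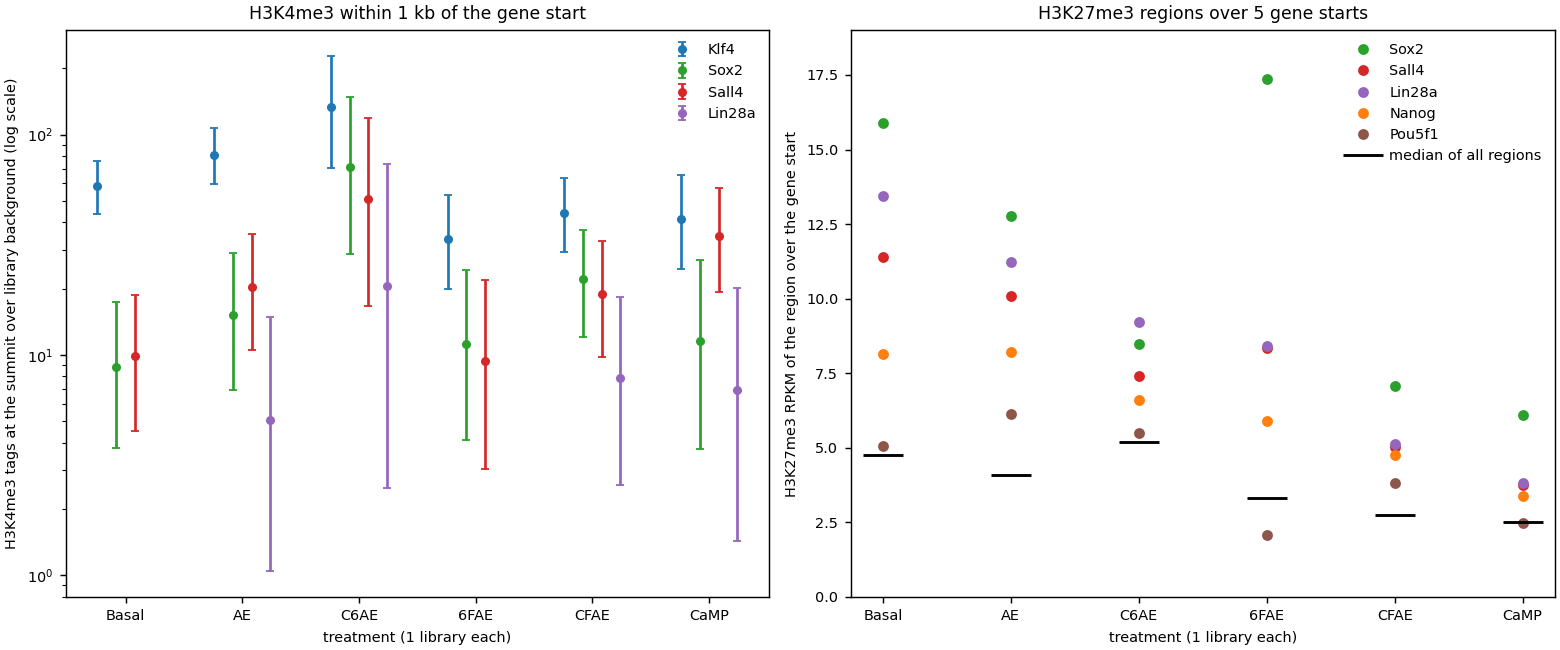
Left, H3K4me3 tags at the summit within 1 kb of the gene start over the library background (log axis) for the 4 genes with a peak in at least 4 libraries, with 95% exact Poisson intervals that cover counting error only. Right, H3K27me3 RPKM of the region over the start for 5 genes, with the median of all regions in each column as a black line. Klf4 lies highest on the left in all 6 libraries, and on the right CaMP holds the lowest value for Sox2, Sall4, Lin28a and Nanog and the lowest column median.

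The peak lists gave a similar contrast. At −log10 q of at least 1.3, H3K27me3 peaks overlapped the starts in 14 of the 18 combinations of gene and library without Forskolin and in 0 of the 18 with it. The lists themselves differed in the same way: such a peak overlapped 1.53% of the windows across the genome in Basal, 2.09% in AE and 4.04% in C6AE, but 0.0075% in 6FAE, 0.0156% in CFAE and 0.0135% in CaMP. The best fold enrichment in CaMP was 2.92 at Sox2, 2.89 at Lin28a, 2.52 at Sall4, 2.14 at Nanog and 1.97 at Pou5f1, and in AE 4.96, 4.65, 4.19, 3.22 and 3.04 respectively, with 5919506 and 5537372 tags. The part of these genome-wide differences between lists in the values at the 6 genes was not tested.

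Set side by side, Klf4 combined an open start, H3K4me3 and no H3K27me3 region, with 32 CpGs in its upstream sequence. Sox2, Sall4 and Lin28a combined the 3 longest H3K27me3 regions of the table at these loci with listed H3K4me3 peaks at the start. The H3K4me3 peaks were listed in 6 of 6 libraries at Sox2 and Sall4 and in 4 of 6 at Lin28a. At −log10 q of at least 1.3 Lin28a kept 2 of 6, with 2 tags in C6AE and 5 in CFAE. Pou5f1 and Nanog had the smaller H3K27me3 regions over the start, no H3K4me3 peak at −log10 q of at least 1.3 there, and no ATAC region over it. At Sall4 CaMP was highest in ATAC RPKM, as in 27.6% of all regions. It was lowest in H3K27me3 RPKM, as at Sox2, Lin28a and Nanog and in 30.1% of all regions. The listed H3K4me3 fold enrichment at Sall4 was highest in CaMP, but over background C6AE was higher (51.1-fold against 34.5-fold). The Sall4 ATAC region equalled a peak of CaMP replicate 1. The ATAC libraries of CaMP, at 2.90 and 2.32, differed by more than the second CaMP library differed from Control replicate 2.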

How the data were processed

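The members and the lists used here were chosen with earlier results of these data known. Per the labels the authors aligned the reads to mm9 with Bowtie2, called peaks with MACS 2.1.2 and made coverage with deepTools 3.1.0. Per the file headers MACS ran at p 0.05 with an extension of 250 bp. Each deposited list gives a pileup signal (coverage at the summit, in tags), a fold enrichment, −log10 p and −log10 q (the headers state that q was not calculated, and the column is used as listed). The deposited tables hold RPKM by the authors, for ATAC as 1 column per treatment over its replicates, and the ATAC columns were used as the authors' merged values. No alignments were used, and no annotation of mm9 was at hand, so the cell type was not checked against marker genes.

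Regions and peaks were intersected with the windows in Python 3.11.15 (pandas 2.3.3, scipy 1.17.1). Folds of RPKM were taken as log2(RPKM + 1). Library contrasts used the exact permutation test, with limma 3.58.1 on the same values as an alternative. CaMP against Control by library used limma over the 14 libraries (7 residual degrees of freedom), a test added after the merged values were seen. The test code was tested on simulated data. Strands of 5 genes were checked against the RefSeq promoters, and that of Sall4 (minus) was taken as generally known and not checked here. The genes named are the 6 members with every region in their windows. Other pseudocounts, scalings, thresholds, window widths and left-out libraries were tried. ChIP libraries held 633980 to 7103488 tags. MEF isolates are not labelled per library, so p-values measure the spread between libraries only. Inputs were not analysed here.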

Additional observations from a re-analysis of the deposited data

Results flagged for a closer look

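The ChIP libraries named as controls in their titles but as C6FAE in their treatment labels entered no comparison, and several promoter peaks at −log10 q of at least 1.3 in them are given here as values. In the H3K4me3 library Klf4 had a fold enrichment of 37.5, Sox2 of 5.66 and Sall4 of 3.54. In the H3K27me3 library Sox2 had 3.22, Sall4 3.28 and Lin28a 3.13, and Klf4 had no listed peak within 1 kb of its start. The labelled CaMP libraries had 13.2, 4.18 and 11.2 for H3K4me3 at Klf4, Sox2 and Sall4, and 2.92, 2.52 and 2.89 for H3K27me3 at Sox2, Sall4 and Lin28a. The group of these libraries was not inferred from their values. With 2 ATAC libraries per treatment, no test for a library standing apart was possible within a treatment.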

How the results depend on the processing

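The count of start regions 2-fold higher in CaMP than in Control was 1, and 1 under a pseudocount of 0.1, both centrings, a fold of 1.5 and a start window of 2 kb. It was 0 with a pseudocount of 10 (Sall4 0.96) and 0 without regions of low RPKM. The 65 ATAC promoter combinations became 7 at −log10 q of at least 1.3 and 14 among the 20000 best peaks, the 24 of H3K4me3 became 14 at −log10 q of at least 5, and the 32 of H3K27me3 became 14 at 1.3, 0 at 5 and 15 when the peak centre had to lie in the window. Limma on the 14 libraries (added after the data were seen) called 0 of the 3 start regions at an adjusted p under 0.05, and 0 of all regions. That is a count by adjusted p and not of 2-fold gains, so it does not tell whether the Sall4 gain holds. For the 3 compound contrasts the count of called regions was 0 throughout (leave-one-out 0 to 0), which says nothing of stability, since the exact test could not call single regions. At Sox2 the Forskolin difference was 0.54 without 6FAE replicate 1 (unadjusted exact p = 0.0317, adjusted p = 0.249). It was 0.085 without C6AE replicate 2 (unadjusted exact p = 0.69, adjusted p = 0.981). Both left-out libraries had no listed peak there and had been set to a fold enrichment of 1. Directions of the uncalled differences turned. With pileup scaled to library tags the Forskolin difference was −0.13 at Pou5f1 and −0.10 at Klf4. With the mean fold enrichment over the region, that of CHIR99021 was −0.069 at Pou5f1, −0.20 at Klf4 and 0.011 at Lin28a, and that of compound 6 −0.030 at Pou5f1. Leaving out 1 library at a time moved the Forskolin difference from −0.022 to 0.15 at Pou5f1, −0.047 to 0.070 at Nanog, −0.0045 to 0.22 at Klf4, −0.12 to 0.35 at Sall4 and −0.072 to 0.11 at Lin28a. It moved that of CHIR99021 from −0.11 to 0.36 at Sox2 and −0.49 to −0.18 at Sall4, and that of compound 6 from −0.43 to −0.11 at Sox2, −0.016 to 0.16 at Pou5f1, −0.16 to 0.064 at Klf4 and −0.13 to 0.34 at Sall4. The replicate block (permutation within replicate numbers) called 0 regions. Same-numbered libraries did not deviate together (correlation −0.15 to 0.054 over 21 pairs of treatments), so the numbers were not used to pair. The following were added after the data were seen. On summit tags over background, H3K4me3 at Sall4 was lower in CaMP than in the highest library by 0.57 on the log2 scale (−0.57), and centring changed the H3K27me3 counts from 4 to 0 against Basal and from 5 to 1 against AE. Depth limits the H3K4me3 values of C6AE and the H3K27me3 values of 6FAE most.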
